A study of Mus musculus with 12 samples.

Results

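The genotype effect shared by female and male submandibular glands (SMGs) was measured over all 12 of the 12 libraries of the series. It was taken as the mean of the knockout against wild-type contrasts of females and of males. The 6 knockout glands came from C57BL/6J-*Pou2f3*em1Cbwi/J mice, called C57BL/6J-*Pou2f3* -/- or knockout here, and the 6 wild-type glands from C57BL/6J mice, all from Jackson Laboratory and 8 weeks old. Each genotype held 3 female and 3 male libraries, labelled as biological replicates, with no further treatment in any group. *Pou2f3* encodes the transcription factor that defines tuft cells (TCs), rare chemosensory epithelial cells of the ducts, and the allele is germline, so that every cell of the animal carries it. Bulk RNA-sequencing of whole glands was used, in which fewer cells of a type and less RNA per cell cannot be told apart. The question was which genes stood higher or lower in knockout glands of both sexes, and whether the genes of the circadian clock were among them.

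*Pou2f3* itself (ENSMUSG00000032015.17, chr9:43035228-43121666 on GRCm39) was close to the detection limit in every library. It had 0, 0 and 0 counts in knockout females and 1, 0 and 2 in wild-type females. In males it had 0, 3 and 1 counts in knockouts and 1, 10 and 0 in wild types. The genotypes overlap in both sexes, and a count of 0 allows up to 3 counts, so that the genotype in the labels could not be checked from this gene. The TC markers *Gnat3* and *Il25* had 0 counts in every library, and *Trpm5* had at most 4.

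The clearest shared difference lay in the circadian clock. *Bmal1* and *Npas2*, which encode partners of the activating clock complex, were 8.95-fold and 10.3-fold higher in knockout glands, averaged over the sexes. *Dbp*, *Ciart*, *Per2*, *Per3* and *Tef*, which that complex activates, were lower by 7.34-fold, 8.06-fold, 3.32-fold, 2.78-fold and 2.65-fold. Each of these 7 genes separated the 3 knockout from the 3 wild-type libraries in females and again in males, a separation that 49.3% of all genes tested had in females and 14.5% in males. Among 28 clock genes tested, 18 were called at an adjusted p under 0.05, 5 higher and 13 lower, against 17.5% of all 17893 genes tested. Outside the lists of clock and clock output genes used here, the collagen gene *Col5a3* and the spondin gene *Spon2* were higher in knockouts of both sexes. The aldehyde dehydrogenase genes *Aldh1a7* and *Aldh1a3* were lower in both.

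In the mammalian clock, BMAL1 pairs with CLOCK or NPAS2 and binds E-box elements to activate the *Per* and *Cry* genes, whose proteins return to the nucleus and inhibit that complex. The same complex activates *Nr1d1* and *Nr1d2*, which encode the REV-ERB repressors of *Bmal1* and *Npas2*, while the ROR factors activate them through the same RORE elements. It also activates *Dbp*, *Tef* and *Hlf*, PAR bZIP factors that bind D-box elements in competition with the repressor NFIL3, so that transcripts of the activating and the repressing arm of the loop peak at opposite times of day in most tissues, salivary glands among them.

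Library depth and composition set the precision of these values. Total counts per library ran from 47031917 to 67881902. The scaling factors of the TMM method were 0.625 to 0.759 in wild-type females and 0.902 to 1.45 in the other 9 libraries, so that the wild-type female libraries were scaled apart from the rest. The library names end in running numbers, 1 to 6 in wild type and 7 to 12 in knockout, so that this order and the genotype cannot be told apart, and the hour of collection is not given in the sources used here. Values of single libraries are normalized counts, that is counts scaled to a common effective library size, and are listed for replicates 1, 2 and 3 in turn, with knockouts before the word against and wild types of the same sex after it. Fold changes are log2 values from edgeR with standard errors (SE) and adjusted p by Benjamini-Hochberg over all genes tested, with 3 libraries per group.

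The average of the female and the male genotype contrast called 3127 of 17893 genes, which is 17.5%, with 1109 higher (6.2%) and 2018 lower (11.3%) in knockouts. Upper-quartile scaling moved this split to 1574 higher and 1392 lower. An additive model of genotype and sex called 236 genes, 50 higher and 186 lower. A model with the replicate number as a block called 1891, 685 higher and 1206 lower. An average can be carried by 1 sex, and 988 of the 3127 genes had opposite signs in females and males. A gene was therefore counted as moved alike only if it was called in the average contrast and had the same sign with an unadjusted p under 0.05 in each sex. This held for 383 genes (2.14% of those tested), 106 of them higher (0.592%) and 277 lower (1.55%). Over all genes tested, 8290 had an unadjusted edgeR p under 0.05 in females and 2056 in males. With so many, unrelated changes in the 2 sexes can meet the rule by coincidence, and how many of the 383 did so was not tested. Of the called genes outside the 383, 2546 had a p under 0.05 in females only and 177 in males only, while 21 had it in both sexes with opposite signs. Opposite changes cancel in the average, so that the 21 cannot show how often the sexes agreed. Without wild-type male replicate 2, knockout male replicate 2, wild-type female replicate 3, knockout male replicate 3 or knockout female replicate 3, the calls in the average contrast dropped to 1804, 1839, 1972, 2010 and 2045, respectively. The number of genes that moved alike was 226 without knockout male replicate 2 and 667 without knockout male replicate 1.

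The 383 genes differed in how evenly the sexes shared the change. Knockout and wild-type libraries did not overlap in either sex for 273 of them, 71 higher and 202 lower, against 2.61% of all genes tested with such a separation in 1 direction. The rule already asks for a small p and an equal sign in each sex. This separation therefore follows from it in large part and is not further support. A test of the difference between the sexes (the interaction contrast, 25.7% of all genes called) called 54 of the 383, and the change was larger in females for 52 of these. The median absolute log2 fold change of the 383 genes was 0.72 in females and 0.49 in males. Only 42 had an absolute log2 fold change above 1 in each sex, 25 higher and 17 lower. At an adjusted p under 0.05 in each sex taken alone, 28 genes remained of the 383, and 14 of these 28 were clock or clock output genes. Called in females alone were 36.9% of all genes tested, and in males alone 0.235%. At the limit of the rule, *Engase*, *Shpk* and *Arhgef40* were the last genes inside it, with male p values of 0.0499, 0.0499 and 0.0498. *Lrrc75b*, *Zxda* and *Zfp423* were the first outside it, with their larger p at 0.0503, 0.0503 and 0.0505.

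Across all 17893 genes the female and male log2 fold changes ran in opposite directions more often than not. They had the same sign for 43.3% of genes and their Pearson correlation across genes was −0.17. Across the 28 clock genes the correlation was 0.90, and 23 of the 28 had the same sign. These correlations are descriptions across genes, which are not independent replicates, and the 12 libraries share 1 scaling. Among the 28 clock genes 14 moved alike, 4 higher and 10 lower, and 13 of these 14 did so without overlap in either sex.

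**Figure D1:**
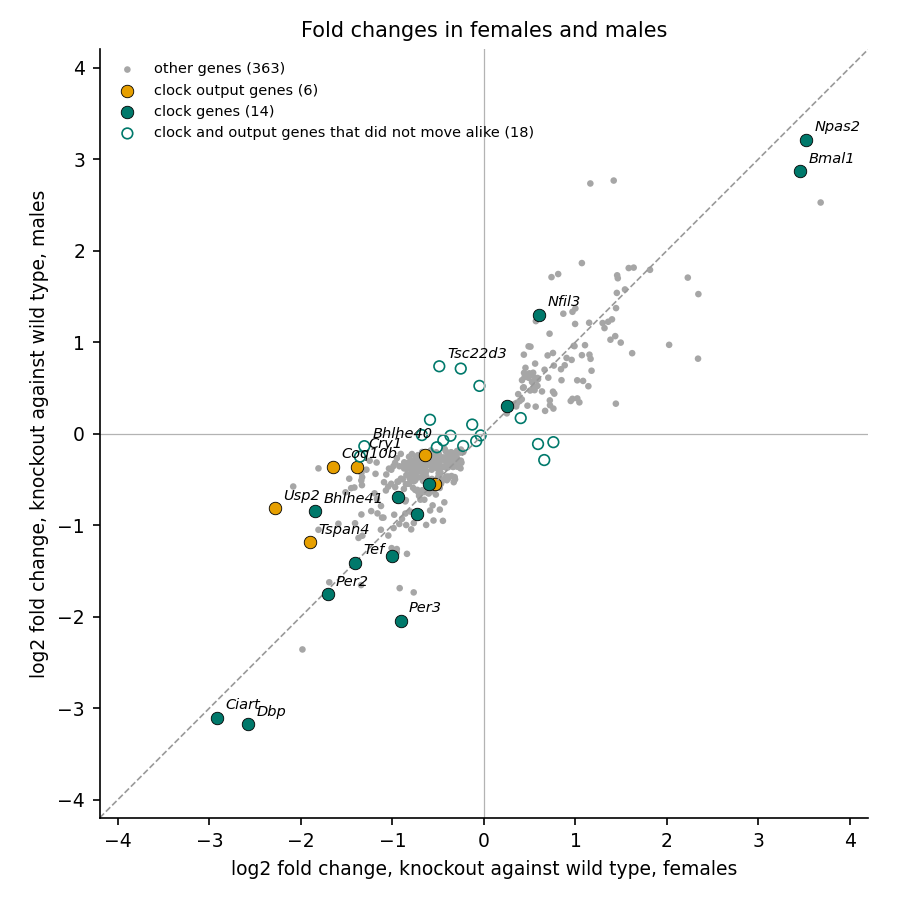
Log2 fold change of knockout against wild type in females (horizontal axis) and males (vertical axis), with 1 point per gene and a dashed line at equal change. Filled points are the genes that moved alike, which lie in 2 quadrants because the rule asks for equal signs, and 5 more genes that moved alike lie beyond the axes. Open points are 18 clock and output genes that did not move alike. *Bmal1* and *Npas2* stand at the upper right, *Dbp* and *Ciart* at the lower left.

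Among the activators of the loop, large rises were measured for *Npas2* and *Bmal1* (ENSMUSG00000055116.9, chr7:112806152-112914735). *Bmal1* had 619, 582 and 446 normalized counts in knockout females and 43.8, 59.7 and 46.7 in wild-type females. In males it had 654, 479.9 and 417 in knockouts and 64.6, 74.7 and 72.6 in wild types. The lowest knockout library, at 417, stood far above the highest wild-type library, at 74.7, and the average log2 fold change was 3.16 (SE 0.15) with adjusted p 9.02e-08. The increase was 3.45 in females and 2.87 in males on the log2 scale, and the 95% interval of their difference ran from −0.02 to 1.19.

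*Npas2* (ENSMUSG00000026077.16, chr1:39232705-39402323), which encodes the paralog of CLOCK that can replace it beside BMAL1, rose as well. It had 418, 399.7 and 290.0 normalized counts in knockout females and 30.4, 29.8 and 36.2 in wild-type females. Males had 279, 272 and 212 against 27.7, 22.99 and 31.3. The groups were far apart in each sex, and the average log2 fold change was 3.37 (SE 0.15) with adjusted p 9.02e-08. *Clock* (chr5:76342860-76452846), the constitutive partner, rose by much less. It stood at 2743, 3198 and 2909 against 2528, 2561 and 2336 in females, and at 3155, 3297 and 3638 against 2528, 3109 and 2553 in males. The male groups were separated by the narrow gap between 3109 and 3155 normalized counts. Its log2 fold change was 0.28 (SE 0.07) with adjusted p 0.0226, which ranged from 0.00481 to 0.0977 over the alternative settings and was above 0.05 without knockout male replicate 3, wild-type female replicate 3 or wild-type male replicate 3.

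*Rora* and *Rorb*, which encode activators of *Bmal1*, did not pass the test. Their average log2 fold changes were −0.26 (SE 0.09) and 0.23 (SE 0.58), with adjusted p of 0.07 and 0.817. *Rorb* was near the detection limit, with at most 21.6 normalized counts. Thus 3 of the 6 listed activators, *Bmal1*, *Npas2* and *Clock*, were higher, against 6.2% of all genes, 0 were lower, and the median log2 fold change of the list was 0.28 against 0.01 over all genes.

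**Figure D2:**
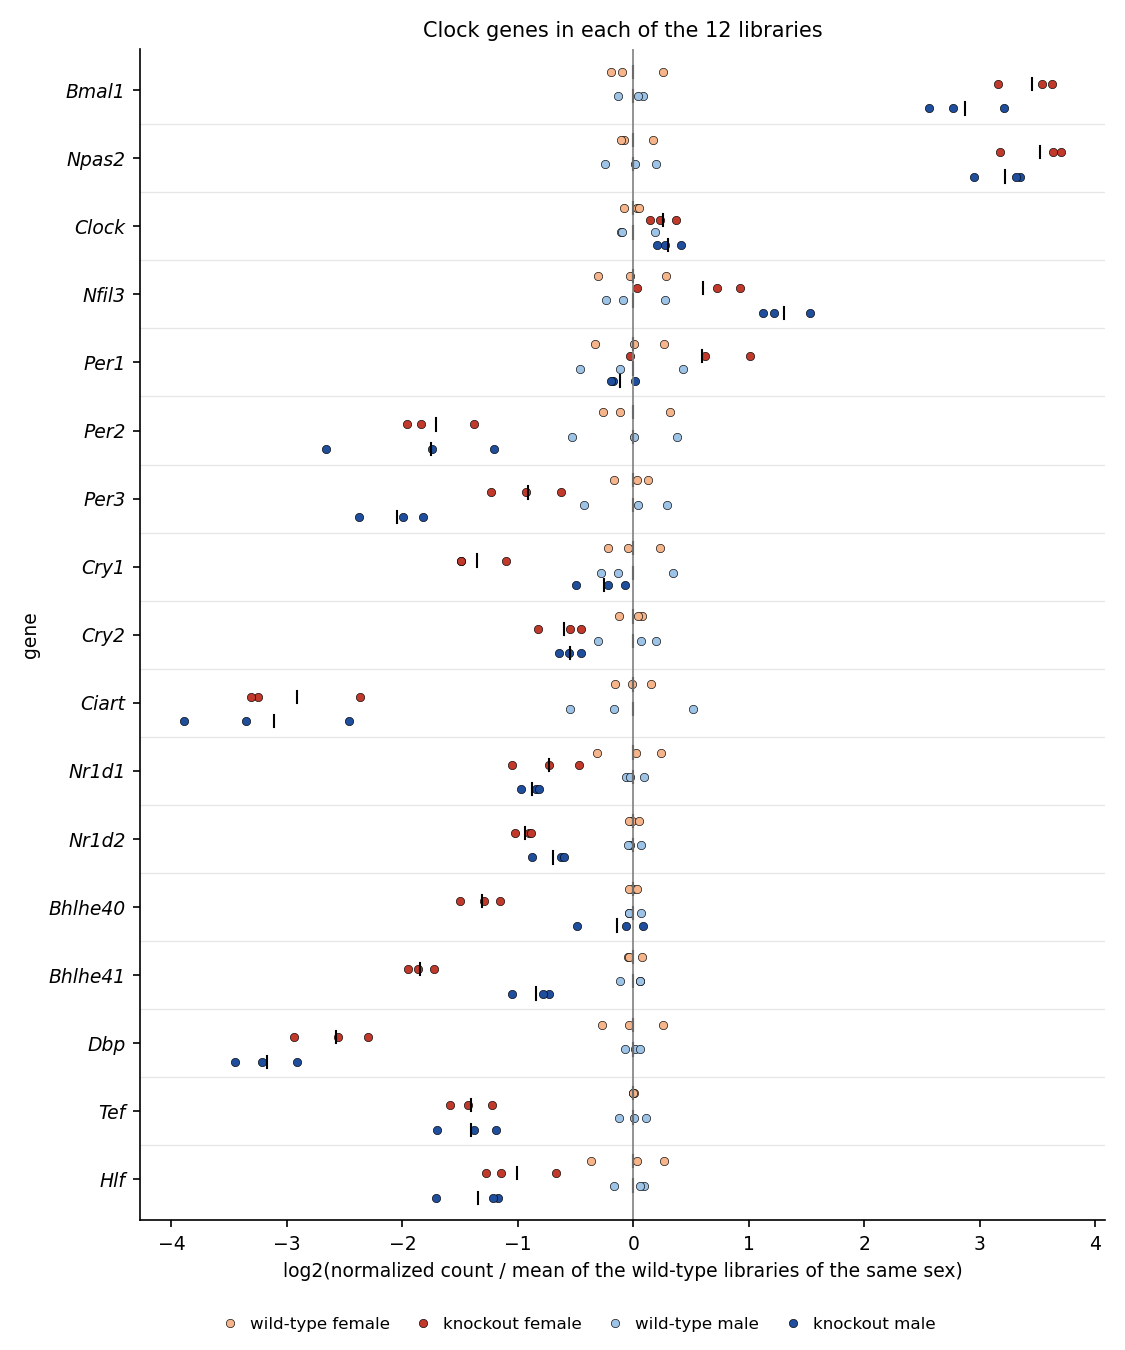
Clock genes (vertical axis) in each of the 12 libraries, as log2 of the normalized count over the mean of the 3 wild-type libraries of the same sex (horizontal axis). Each point is 1 library and each short bar a group mean. *Bmal1* and *Npas2* lie to the right in all 6 knockout libraries, *Dbp*, *Ciart*, *Per2*, *Per3* and *Tef* to the left, while *Cry1* and *Bhlhe40* are clear of the wild-type points in the females only.

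The PAR bZIP genes, direct targets of the activating complex and themselves drivers of rhythmic output, were lower in both sexes. *Dbp* (ENSMUSG00000059824.13, chr7:45354512-45359627) had 894, 684 and 1066 normalized counts in knockout females against 4353, 5133 and 6276 in wild-type females. Knockout males had 344, 236 and 279 against 2611, 2456 and 2682. The highest knockout library had 1066 and the lowest wild-type library 2456. *Dbp* fell by 2.87 (SE 0.13) on the log2 scale, with adjusted p 9.02e-08. The female contrast was −2.58 and the male contrast −3.17 on that scale.

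*Tef* stood at 2752, 2470.2 and 3179.9 in knockout females, and its 3 wild-type values of 7432, 7435 and 7416 were nearly equal. Males had 2483, 1741 and 2179.7 against 6117, 5217 and 5682. The groups did not overlap, and *Tef* fell by 1.41 (SE 0.10) on the log2 scale, with adjusted p 4.73e-06. Its change was the same in both sexes to 2 decimals, with a 95% interval of the difference from −0.40 to 0.40. *Hlf* had 219, 335 and 240.4 against 637, 412 and 544 in females and 131, 189 and 183 against 454, 379 and 444 in males, again without overlap, and fell by 1.17 (SE 0.14) with adjusted p 7.16e-04.

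*Nfil3*, which encodes the repressor that competes for the same D-box elements, went the other way. It had 1212, 654 and 1055 in knockout and 625, 775 and 517 in wild-type females, where knockout replicate 2 lay inside the wild-type range. Males had 842, 678 and 632 against 353, 246 and 274, without overlap. The average log2 fold change was 0.95 (SE 0.16) with adjusted p 0.00303, 0.60 in females and 1.30 in males.

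The ratio of *Dbp* to *Bmal1* counts within a library needs no scaling between libraries. It was 1.44, 1.18 and 2.39 in knockout females and 99.3, 86.0 and 134 in wild-type females. It was 0.526, 0.492 and 0.669 in knockout males and 40.4, 32.9 and 37.0 in wild-type males. The ratio was thus at least 32.9 in every wild-type library and at most 2.39 in every knockout library. Within each genotype the ratio was lower in males than in females without overlap, which was not tested.

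**Figure D3:**
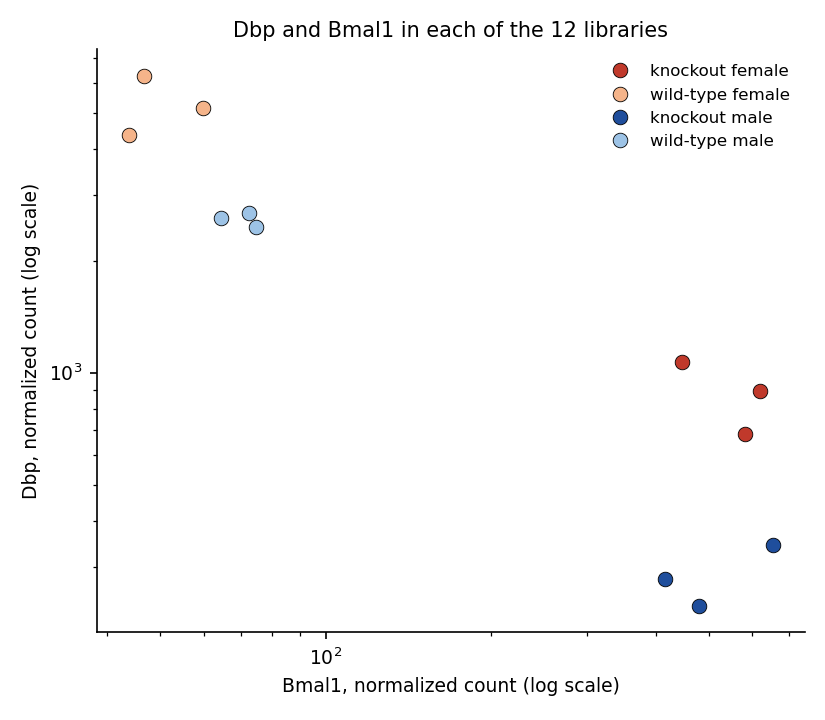
Normalized counts of *Bmal1* (horizontal axis) and *Dbp* (vertical axis), both on log scales, with 1 point for each of the 12 libraries. The 6 knockout libraries lie at the lower right and the 6 wild-type libraries at the upper left, with no library between them.

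Promoters of the genes that moved alike were read from GRCm39 with Gencode M39 transcript starts, 250 bases before to 50 after the start, and searched on both strands for the letters that the clock factors are known to bind. At *Dbp* the window held the RORE core letters at 2 places. Both sites are shown in full on the plus strand with the core in capitals, from chr7:45354268-45354294 and chr7:45354313-45354339, since they lie in the promoter of the gene with the largest fall among the PAR bZIP factors:
Dbp, first site: tggcccgaagTGGGTCAcggtcccgcc
Dbp, second site: tggccaaataTAGGTCAgtgtcccgcc

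Among the repressors of the loop, 9 of the 10 listed genes were called lower and 0 higher, and 7 moved alike, against 11.3% of all genes called lower and 1.55% moved alike and lower. Their median log2 fold change was −0.81. *Ciart* (ENSMUSG00000038550.11, chr3:95785815-95789991), a repressor of the BMAL1 complex, had the largest fall among the 28 clock genes. It had 24.2, 23.3 and 44.6 normalized counts in knockout and 229, 206 and 256 in wild-type females. Knockout males had 25.2, 9.37 and 13.6 and wild-type males 198, 124 and 94.8. The groups were separate in each sex, and *Ciart* fell by 3.01 (SE 0.27) on the log2 scale with adjusted p 5.81e-05. Its promoter held 3 E-boxes, CACGTG, more than any other clock gene that moved alike. They are shown in capitals on the minus strand, from chr3:95789641-95789666 and chr3:95789564-95789644:
Ciart, first E-box: catctagagtCACGTGttgccggtaa
Ciart, the other E-boxes: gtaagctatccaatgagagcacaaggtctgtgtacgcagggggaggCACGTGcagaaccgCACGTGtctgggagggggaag

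The *Per* genes did not move as 1 group. *Per2* had 231, 252 and 346 against 1119.7, 831 and 752 in females, and 142, 268 and 389 against 1168, 622 and 900.5 in males. The genotypes did not overlap, and *Per2* fell by 1.73 (SE 0.23) with adjusted p 0.00103 although its spread within groups, an SD of 0.48 on the log2 scale, was above the median of 0.24 over all genes. *Per3* had 1222, 992 and 1509 against 2538, 2373 and 2074 in females and 692, 470.5 and 612 against 2992, 1821 and 2514 in males. It fell by 0.91 in females and 2.05 in males, with no overlap in either, and this difference between the sexes was itself called (adjusted p 0.0125). *Per1*, in contrast, had 4589.7, 2234 and 3506 against 2739, 1816 and 2299.6 in females, and 1651, 1888 and 1626 against 2514, 1355 and 1721 in males. Its groups overlapped in both sexes, and the log2 fold change of 0.24 (SE 0.18) had an adjusted p of 0.373 and a 95% interval from −0.15 to 0.62.

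The *Per2* and *Per3* promoters carried the D-box letters TTATGTAA, 1 copy in *Per2* and 2 in *Per3*. They are shown on the minus strand with the D-box in capitals, from chr1:91387070-91387296 for *Per2* and chr4:151129141-151129390 for *Per3*, because these are the only clock genes that moved alike with a D-box in the window:
Per2: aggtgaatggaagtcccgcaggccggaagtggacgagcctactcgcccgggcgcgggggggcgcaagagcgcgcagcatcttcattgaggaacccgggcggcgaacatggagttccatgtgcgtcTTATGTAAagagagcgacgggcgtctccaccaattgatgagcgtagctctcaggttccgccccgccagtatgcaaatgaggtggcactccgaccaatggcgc
Per3: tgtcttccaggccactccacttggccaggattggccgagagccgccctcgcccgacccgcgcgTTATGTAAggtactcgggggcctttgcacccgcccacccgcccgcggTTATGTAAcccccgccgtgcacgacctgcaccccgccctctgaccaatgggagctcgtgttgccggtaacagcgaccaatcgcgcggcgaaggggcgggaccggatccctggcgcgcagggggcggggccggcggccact

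The cryptochrome genes differed in the same manner. *Cry2* had 589, 485 and 628 against 907, 888 and 791 in females and 438, 467 and 501 against 785, 554 and 717 in males. It did not overlap in either sex and fell by 0.58 (SE 0.10), with adjusted p 0.00336. *Cry1* had 206, 206 and 269 against 679, 560.2 and 497 in females. In males it had 174, 212 and 235 against 312, 225 and 203, where the genotypes overlapped. The average was called at −0.80 (SE 0.14, adjusted p 0.00334), with −1.36 in females and −0.25 in males, and the interaction contrast called their difference (adjusted p 0.0132). *Cry1* therefore did not move alike, and its average was not called in an additive model of genotype and sex (adjusted p 0.0769).

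The REV-ERB genes, repressors of *Bmal1* and *Npas2*, had smaller and very even changes. *Nr1d2* had 4368, 4739.5 and 4803 against 8813, 8648 and 9174 in females and 4297, 3625 and 4387 against 6518, 6974 and 6436 in males. Its spread within groups was the lowest among the repressors, with an SD of 0.09 on the log2 scale, and it fell by 0.82 (SE 0.07) with adjusted p 4.65e-05. *Nr1d1* had 2708, 2173 and 3254 against 3628, 5317 and 4571 in females and 1545, 1692 and 1718 against 2890.4, 2971 and 3221 in males, and fell by 0.80 (SE 0.11) with adjusted p 0.00113. Neither overlapped in either sex. The 95% interval of the difference between the sexes ran from −0.55 to 0.07 for *Nr1d2* and from −0.32 to 0.60 for *Nr1d1*.

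*Bhlhe41* and *Bhlhe40* encode DEC repressors, which compete with the activating complex for E-boxes. *Bhlhe41* had 288, 306 and 337 against 1176, 1080.2 and 1084 in females and 644, 517 and 623 against 1111, 985 and 1112 in males. It moved alike, by −1.84 in females and −0.85 in males, and the difference was called in the interaction contrast (adjusted p 0.00312). *Bhlhe40* had 1770.1, 1609.6 and 1395 against 3934, 3850.2 and 4037 in females. In males it had 5817, 3924 and 5245 against 5756, 5371 and 5363, with overlap. Its changes of −1.31 and −0.14 differed as well (adjusted p 0.00359), and it did not move alike. Its average, too, was not called in the additive model (adjusted p 0.0868).

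The next list held kinases and ubiquitin ligases that set the life of clock proteins, and also *Timeless*, which encodes neither. No gene of this list moved alike, against 2.14% of all genes. Of 8 tested, *Btrc* was called higher and *Fbxw11*, its paralog, lower, while the rest, among them *Csnk1d*, *Csnk1e*, *Fbxl21*, *Gsk3b* and *Timeless*, were not called, where 6.2% of all genes were called higher and 11.3% lower. Both changes were larger in females. *Btrc* changed by 0.76 in females and −0.09 in males and *Fbxw11* by −0.68 and −0.02, with adjusted p of 0.0109 and 0.00774 in the interaction contrast. *Btrc* lost its call without any 1 of 8 of the 12 libraries, and neither was called in the additive model (adjusted p 0.245 and 0.143). *Csnk1e*, which encodes a kinase of the PER proteins, had log2 fold changes of 0.66 in females and −0.29 in males, which differed (adjusted p 0.0105). The list's median log2 fold change was −0.06.

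Clock output genes, a list of 10 genes known to be rhythmic in many mouse organs, had 6 called lower and 0 higher, and all 6 moved alike, against the same 11.3% and 1.55% of all genes. *Tspan4*, a tetraspanin gene, had 193, 196 and 176 against 645, 679.5 and 784 in females and 124, 165 and 139 against 313, 365 and 297 in males. *Usp2*, a ubiquitin-specific protease gene, had 599, 526 and 708 against 3070.2, 2762 and 3077 in females and 1373, 1203 and 1700.3 against 2514, 2695 and 2329 in males. Neither overlapped in either sex, and they fell by 1.54 (SE 0.10) and 1.55 (SE 0.10) on the log2 scale with adjusted p 2.87e-06 and 2.21e-06. *Coq10b*, of coenzyme Q function, had 500.0, 447 and 506 against 1456, 1644 and 1468 in females and 768, 862 and 809.8 against 1148, 981 and 1003 in males, again without overlap, and fell by 1.01 (SE 0.07) with adjusted p 5.38e-06.

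The female change was the larger for most output genes. It was −2.28 against −0.82 in males for *Usp2*, −1.90 against −1.19 for *Tspan4*, −1.65 against −0.36 for *Coq10b*, −1.39 against −0.37 for the mitotic kinase gene *Wee1* and −0.64 against −0.24 for the cytochrome P450 reductase gene *Por*. The interaction contrast called each of these 5, with adjusted p of 0.00267, 0.0208, 0.00207, 0.0055 and 0.028. *Wee1* overlapped in males, where knockout replicate 2 at 490.2 lay above wild-type replicate 3 at 469. *Lonrf3* changed by −0.53 in females and −0.55 in males, with adjusted p 0.0312 in the average contrast, and lost its call without any 1 of 5 libraries. *Nampt*, *Pdk4*, *Fkbp5* and *Tsc22d3* were not called, with average log2 fold changes of −0.22 (SE 0.12), 0.24 (SE 0.23), −0.33 (SE 0.15) and 0.12 (SE 0.14). *Tsc22d3*, a glucocorticoid target, had −0.49 in females and 0.74 in males, which differed (adjusted p 0.0106).

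The *Usp2* promoter held 1 E-box, and that of *Coq10b* an E-box together with a D-box read on the opposite strand as TTACATAA. *Tef* held 1 E-box. They are shown on the plus strand with these letters in capitals, from chr9:43978150-43978175, chr1:55091673-55091922 and chr15:81695365-81695614, as further examples of lower genes with an E-box before the start, while the E-box of *Bhlhe41* spans the start and is not shown:
Usp2: gctttttctcCACGTGgttctctgta
Coq10b: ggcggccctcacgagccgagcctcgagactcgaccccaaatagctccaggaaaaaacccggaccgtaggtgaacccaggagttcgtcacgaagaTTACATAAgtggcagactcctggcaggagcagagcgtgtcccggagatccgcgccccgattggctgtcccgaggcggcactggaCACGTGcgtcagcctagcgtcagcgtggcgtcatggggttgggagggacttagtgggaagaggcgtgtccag
Tef: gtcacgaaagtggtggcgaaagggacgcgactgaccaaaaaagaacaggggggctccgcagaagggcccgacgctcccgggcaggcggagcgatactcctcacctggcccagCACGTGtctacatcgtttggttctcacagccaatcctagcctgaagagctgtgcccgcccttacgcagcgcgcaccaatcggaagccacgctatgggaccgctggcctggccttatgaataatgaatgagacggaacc

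Motif letters were counted against all promoters of the same length. The E-box CACGTG occurred in 9.47% of the promoters of 14168 protein-coding genes tested, in 3 of the 10 clock genes that moved alike and were lower (*Ciart*, *Tef* and *Bhlhe41*), and in 10.6% of the 255 such genes outside the clock and output lists. The D-box, TTATGTAA or TTATGCAA, occurred in 1.34% of all promoters, in 2 of the 10 and in 2.35% of the 255. The RORE core, TAGGTCA or TGGGTCA, occurred in 5.43% of all promoters, in 1 of the 10 and in 3.92% of the 255. None of the 3 was found in the windows of the 4 clock genes that were higher. The E-box also stood before the start in *Per1* and *Fkbp5*, which were not called. The same held for *Cry1* and *Bhlhe40*, which did not move alike. Among the 88 genes outside the lists that were higher, 5.68% held an E-box, 4.55% a D-box and 9.09% a RORE core. The letters of the 3 motifs do not contain each other. A match of letters in a short window is a description of the sequence and not a measured binding site.

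Outside the clock and output lists 363 genes moved alike, 102 higher and 261 lower, and 34 of them had an absolute log2 fold change above 1 in each sex. The output list holds only 10 genes, so that the 363 can include further genes under clock control. Among the genes of the 363 that separated the genotypes in each sex, the 12 higher and 12 lower with the smallest p in the weaker sex are described. *Col5a3* (ENSMUSG00000004098.8, chr9:20681337-20726418), a fibrillar collagen gene, led them. It had 679, 908 and 824 normalized counts in knockout and 331, 268 and 203 in wild-type females. Knockout males had 471, 802 and 703 and wild-type males 185, 187 and 191. The lowest knockout library was above the highest wild-type library by a wide margin in each sex, and *Col5a3* rose by 1.70 (SE 0.14) with adjusted p 3.73e-05.

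*Spon2*, which encodes a secreted matrix protein, had 125, 139.7 and 87.99 against 50.6, 35.01 and 43.7 in females and 456, 411 and 297 against 129.9, 160.1 and 160.0 in males. Its level was higher in males than in females in either genotype, and its log2 fold change was 1.41 (SE 0.16) with adjusted p 4.39e-04. *Arhgap20*, a GTPase-activating protein gene, had 167, 232 and 169 against 97.8, 47.98 and 58.8 in females and 244, 451 and 336 against 90.7, 115 and 112 in males, with a log2 fold change of 1.58 (SE 0.20) and adjusted p 8.18e-04. The cadherin gene *Dchs2* rose by 1.15 (SE 0.15), the metalloproteinase gene *Mmp9* by 0.96 (SE 0.17) and *Adam19*, a membrane protease gene, by 1.18 (SE 0.18). *Sphkap*, an anchoring protein gene for protein kinase A, had 45.03, 57.2 and 47.1 against 23.6, 24.6 and 18.1 in females and 75.5, 164 and 163 against 19.99, 22.99 and 17.3 in males, where the rise of 2.73 exceeded the 1.16 in females (adjusted p 0.0277).

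Smaller rises belonged to the tight junction gene *Tjp3* (0.83, SE 0.09), *Nav1* (0.82, SE 0.15), *Clip2* (0.59, SE 0.09), which encodes a microtubule-binding protein, the kinase gene *Pim1* (0.55, SE 0.09) and *Sash1* (0.39, SE 0.07). The rise of *Tjp3* was larger in females, 1.14 against 0.52 (adjusted p 0.0217). For the other 10 of these 12 genes, all but *Tjp3* and *Sphkap*, a difference between the sexes was not called.

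**Figure D4:**
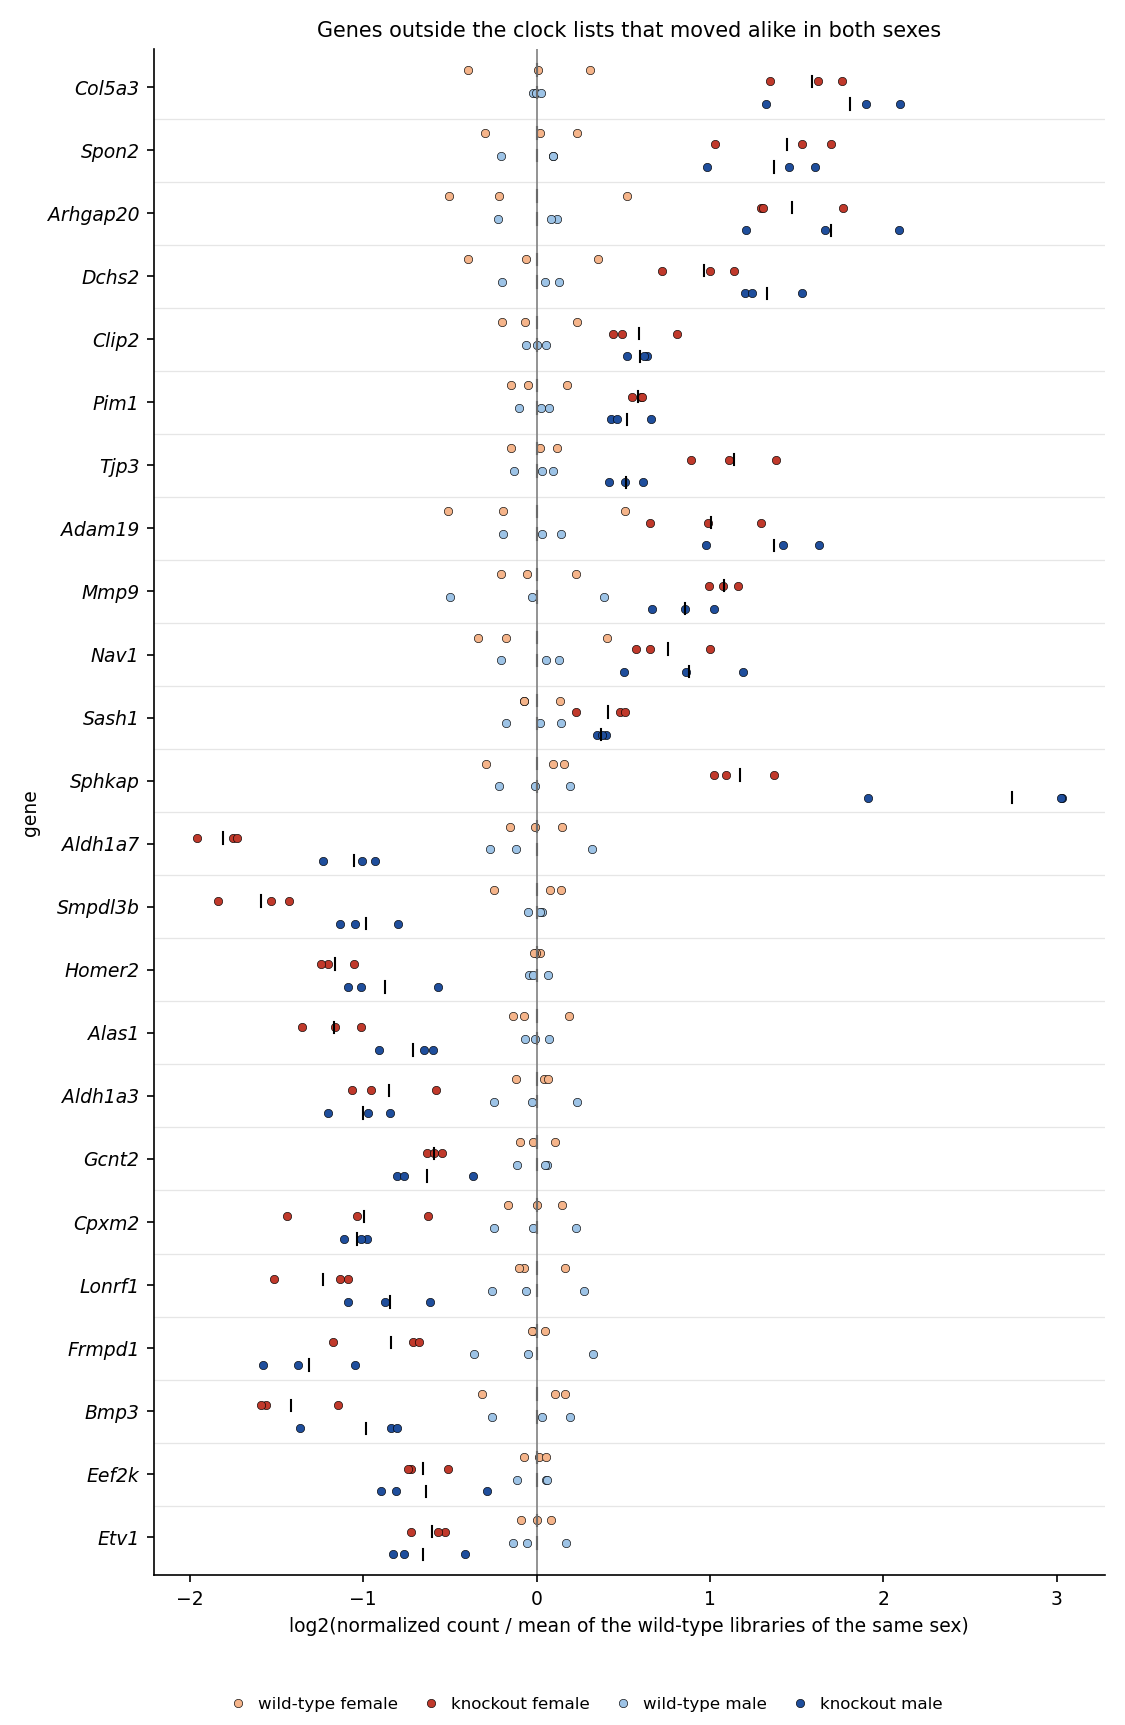
The 12 higher and 12 lower genes outside the clock and output lists (vertical axis), as log2 of the normalized count over the mean of the 3 wild-type libraries of the same sex (horizontal axis). Each point is 1 of 12 libraries and each short bar a group mean. In every gene the knockout points of a sex lie to 1 side of the wild-type points of that sex, as the choice of genes requires.

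The lower genes were led by *Aldh1a7* (ENSMUSG00000024747.4, chr19:20667107-20704932), of the aldehyde dehydrogenase 1A family. It had 502, 580.2 and 589 against 1757, 2158 and 1941 in females and 611, 496 and 581 against 1075, 1455 and 969.7 in males. The genotypes were well separated, and *Aldh1a7* fell by 1.43 (SE 0.11) with adjusted p 9.53e-06, more in females than in males (adjusted p of the interaction 0.0207). *Aldh1a7* and *Aldh1a1* are close paralogs, so that reads they share were divided by estimation. *Aldh1a3*, which makes retinoic acid, had 241, 338 and 260.2 against 521, 529 and 466 in females and 623, 571 and 486 against 1314, 944 and 1101 in males, and fell by 0.92 (SE 0.11) with adjusted p 5.65e-04.

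*Alas1*, the rate-limiting enzyme gene of heme synthesis, had 2181, 1723 and 1968 against 4011, 5008 and 4191 in females and 2908, 2345 and 2802 against 4620.0, 4383 and 4206 in males, and fell by 0.94 (SE 0.09) with adjusted p 5.91e-05. *Homer2*, a scaffold gene of calcium signaling, had 4097, 3986 and 4554 against 9547, 9423 and 9336 in females and 2311, 1616 and 1700.3 against 3593, 3331 and 3382 in males, and fell by 1.02 (SE 0.09) with adjusted p 4.65e-05. *Smpdl3b*, a sphingomyelin phosphodiesterase-like gene, had 404, 327 and 434 against 987, 1233 and 1287 in females and 221, 175 and 186 against 371, 393 and 390.0 in males, and fell by 1.29 (SE 0.10). None of these 3 genes overlapped in either sex, and *Smpdl3b* fell more in females (adjusted p of the interaction 0.0384).

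Further falls were measured for the growth factor gene *Bmp3* (−1.19, SE 0.15), *Frmpd1* (−1.08, SE 0.13), *Lonrf1* (−1.04, SE 0.13), the carboxypeptidase-like gene *Cpxm2* (−1.01, SE 0.14), *Eef2k*, whose kinase brakes translation elongation (−0.65, SE 0.10), the ETS transcription factor gene *Etv1* (−0.63, SE 0.09) and the glycosyltransferase gene *Gcnt2* (−0.61, SE 0.08). *Etv1* and *Gcnt2* changed nearly equally in the sexes. *Etv1* had log2 fold changes of −0.60 in females and −0.66 in males, with a 95% interval of the difference from −0.35 to 0.45, and *Gcnt2* had −0.59 and −0.63, with an interval from −0.32 to 0.40.

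Retinoid metabolism genes had 4 of 12 tested called lower and 0 higher, with 3 moved alike, against 11.3% of all genes called lower and 1.55% moved alike and lower. Besides *Aldh1a7* and *Aldh1a3* these were *Aldh1a1*, with 543, 738 and 519 against 981, 945 and 973 in females and 1135, 1351 and 1401 against 1533, 1679 and 1637 in males (−0.50, SE 0.09), and the retinol dehydrogenase gene *Rdh10*, which was called at −0.34 (SE 0.08) but had an unadjusted edgeR p of 0.124 in males. The list's median log2 fold change was 0.11, and 3 of its 4 lower genes encode aldehyde dehydrogenases. *Aldh1a2*, the remaining member of that family in the list, was not called, at 0.65 (SE 0.37).

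Matrix genes had 5 of 17 called higher and 0 lower, against 6.2% of all genes called higher, with a median log2 fold change of 0.46 that was 0.11 in females and 0.81 in males. *Col5a3*, *Spon2* and the aggrecanase gene *Adamts4* moved alike, where 0.592% of all genes moved alike and were higher. *Adamts4* had 23.1, 51.4 and 27.3 against 7.87, 15.6 and 15.1 in females and 38.2, 83.4 and 44.5 against 8.46, 2.46 and 13.2 in males, and rose by 2.09 (SE 0.39) with adjusted p 0.00521. *Fbn1* and *Adamts16* were called in the average contrast with 0.07 and 0.95 in females against 0.98 and 2.91 in males. The difference was called for *Fbn1* (adjusted p 0.0412) and not for *Adamts16* (adjusted p 0.105). *Fbn1* lost its call in the average contrast without any 1 of 7 libraries, and neither was called in the additive model (adjusted p 0.159 and 0.0947). The fibroblast gene *Pdgfra* was also called higher, by 0.59, with 0.22 in females and 0.96 in males. The other 3 of the 4 fibroblast markers were not called, and 2 of the 4 had the same sign in both sexes.

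The counts of higher genes in the other response lists stand against 6.2% of all genes called higher and 0.592% moved alike and higher. Of 13 glucocorticoid response genes 2 were called higher, *Cdkn1a*, a cell cycle inhibitor gene that moved alike (1.47, SE 0.33, adjusted p 0.063 in the additive model), and *Dusp1* (1.06, SE 0.31), which lost its call without any 1 of 8 libraries. Of 16 immediate early genes 4 were called higher, *Fosb*, *Fosl2*, *Klf2* and *Klf4*, and none moved alike. *Fosb* had 9.24, 8.73 and 34.7 against 14.6, 12.97 and 13.6 in females and 15.9, 271 and 111 against 9.99, 2.46 and 12.4 in males, and the sexes differed (adjusted p 0.0478). *Fosb*, *Fosl2* and *Klf2* lost their calls without any 1 of 6, 5 and 11 libraries, respectively. Of 15 interferon-stimulated genes 1 was called, *Oas2* (0.85, SE 0.23), a share close to that of all genes, and it lost its call without any 1 of 7 libraries.

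Cholesterol synthesis had 5 of 21 genes called lower and 0 higher, against 11.3% of all genes called lower, and 1, *Lss*, which closes the sterol ring, moved alike, against 1.55% of all genes moved alike and lower, with −0.66 in females and −0.37 in males. The synthesis enzyme genes *Fdft1*, *Msmo1* and *Ebp* changed by −1.04, −0.97 and −0.72 in females and by 0.01, 0.18 and −0.01 in males, and each differed between the sexes (adjusted p 0.00607, 0.00593 and 0.0228). *Msmo1* and *Ebp* lost their calls in the average contrast without any 1 of 8 and 5 libraries, respectively. Heat shock and cold-inducible genes had 3 of 11 called lower and none moved alike, against the same 11.3% and 1.55%. The chaperonin genes *Hspd1* and *Hspe1*, which overlap on chromosome 1 so that their reads may not be fully told apart, changed by −0.84 and −0.88 in females and by −0.07 and −0.04 in males, and each differed between the sexes (adjusted p 0.0055 and 0.0104). The cold-inducible *Rbm3* was called at −0.31 (SE 0.09) and lost its call without any 1 of 4 libraries.

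Cell type markers moved with genotype in some lists, and their part in the results above was not tested. Over all genes 11.3% were called lower, 6.2% higher, and 1.55% moved alike and were lower. Of 7 markers of the SMG acinus 3 were lower, the water channel gene *Aqp5*, the ion cotransporter gene *Slc12a2* and the secretory gene *Pip*, which fell by 0.73, 0.67 and 0.65 on the log2 scale, and *Aqp5* and *Slc12a2* moved alike. The other 4 were not called, and 5 of the 7 had the same sign in both sexes. The highest count of *Dcpp2*, 1 of the other 4, was 19769 in knockout and 1116 in wild-type females, but 539 and 50563 in males. The summed level of the 7 ran from 407035 to 480742 normalized counts in knockout and from 594339 to 1102791 in wild-type females, and from 206159 to 300435 and 285894 to 373868 in males, where it overlapped. Much of this sum was *Pip*, which alone ran from 251437 to 286728 in knockout and from 450763 to 708221 in wild-type females. Of 5 duct markers 1 was called, *Ascl3*, which marks a set of duct cells, moved alike and fell by 1.11. The other 4 were not called, 3 of the 5 had the same sign in both sexes, and the median of the list was −0.20. *Foxi1*, a transcription factor gene of ionocytes that was chosen after its values were seen, moved alike as well and fell by 0.66. The endothelial gene *Kdr* moved alike and fell by 0.53, but the other 2 of the 3 endothelial markers were not called and differed in sign between the sexes, and the median of the list was −0.07. The myoepithelial genes *Acta2* and *Cnn1* fell by 0.60 and 0.55 in the average contrast without moving alike. The tubule gene *Ren1* was called higher, by 0.94, the only 1 of the 7 markers of the granular convoluted tubule to be called, and none was called in the macrophage, lymphocyte, plasma cell, skeletal muscle, blood and TC lists. The macrophage and blood lists had opposite signs in the sexes, with medians of −0.76 and −1.15 in females and 0.70 and 2.04 in males, and 3 of 5 and 2 of 4 of their genes tested were called in the interaction contrast, against 25.7% of all genes. Adipocyte markers differed in direction, with medians of −3.43 in females and 5.24 in males, and 0 of 5 were called in the average contrast but 5 of 5 in the interaction contrast. Their summed level varied widely within groups. It ran from 23.5 to 212 normalized counts in knockout and from 101 to 3499 in wild-type females, with overlap, and from 124 to 2743 and 25.4 to 47.8 in males. The summed macrophage and blood markers also overlapped in females and not in males. Markers of sublingual or parotid gland varied within groups far more than between them, from 854 to 286893 normalized counts in knockout females and from 841 to 463733 in wild-type males.

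Genes near *Pou2f3* were counted apart. Within 10 Mb on chromosome 9, 177 genes were tested and 30 were called, a share close to the 17.5% of all genes. Of the 177, 4 moved alike, which is 2.26% against 2.14% of all genes: *Arhgap20* and *Usp2*, described above, the small heat shock gene *Cryab* (−0.61, SE 0.13) and the lysosomal gene *Sidt2* (−0.44, SE 0.08, adjusted p 0.0571 with the authors' factors). *Col5a3* lies on the same chromosome outside this window.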

How the data were processed

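Whole-gland RNA was sequenced in 12 libraries, 3 per genotype and sex, grouped by their labels. The labels call the molecule polyadenylated RNA, the methods total RNA depleted of ribosomal RNA. The authors made estimated counts per gene with Salmon 1.10.1 and Gencode M35 on GRCm39 and analysed them with DESeq2; how transcripts were summed is not given in the sources used here. The authors also deposited a normalized signal, which divides these counts by factors that differ between genes, and it served here as 1 alternative scaling only.

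Estimated counts were rounded and fitted with edgeR 4.0.16 (R 4.3.3, limma 3.58.1): TMM, filterByExpr, a quasi-likelihood fit of the 4 group means, and Benjamini-Hochberg adjustment over 17893 genes. The average contrast is the mean of the knockout against wild-type contrasts of the sexes, and the interaction contrast their difference. Intervals are at 95%, and p values measure only the spread between these libraries. Of 56065 identifiers, 55563 were found in Gencode M39, which gave names and coordinates.

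The members of the clock and output lists were named, the called members of the other lists, the genes near *Pou2f3* that moved alike, and 12 higher and 12 lower genes ranked by the larger p of the sexes. Some members of these lists are not reported here. The members and lists were chosen with earlier results of these data known. Alternatives were RLE, upper-quartile scaling, library sizes without the 20 most abundant genes, the authors' factors, no filter, a minimum of 10 counts in all 12 libraries, DESeq2 1.42.0, an additive model, a replicate block, each library left out in turn and, added after seeing the data, a fit of each sex alone. Nothing in the labels says that equal replicate numbers mark paired mice. On simulated data of 17559 genes for the average contrast, 55.0% of genes changed 1.5-fold and 93.0% of those changed 3-fold in both sexes were called. Of these genes, 52.0% and 91.0% were counted as moved alike. Of the genes counted as moved alike, 7.14% had not been changed in both sexes, and 2% of genes changed 3-fold in females only were counted so. The simulation held far fewer female-only changes than the data, where 36.9% of all genes were called in females. The 7.14% is therefore not an error rate for the 383 genes. Figures were drawn with matplotlib 3.10.9 under Python 3.11.15, and tables with pandas 2.3.3.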

Additional observations from a re-analysis of the deposited data

Results flagged for a closer look

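The genotype effect differed between females and males for 25 of the genes named above, by the interaction contrast of edgeR. The values that follow are female minus male log2 fold changes, so that a negative value means a lower knockout level relative to wild type in females than in males.

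Among clock genes the difference was −1.17 for *Bhlhe40*, −0.998 for *Bhlhe41*, −1.10 for *Cry1* and −0.66 for *Fbxw11*, and 1.14 for *Per3*, 0.85 for *Btrc* and 0.95 for *Csnk1e*. *Per3* was the only 1 of these 7 that fell in both sexes and further in males. *Btrc* and *Csnk1e* had positive changes in females and negative ones in males. Among output genes it was −1.47 for *Usp2*, −1.29 for *Coq10b*, −1.02 for *Wee1*, −0.71 for *Tspan4*, −0.40 for *Por*, −1.22 for *Tsc22d3* and −0.74 for *Nampt*, so that 7 of the 10 output genes and 7 of the 28 clock genes differed, against 25.7% of all genes, and the 7 output genes did so in this direction.

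Among the other genes that moved alike it was −0.76 for *Aldh1a7*, −0.61 for *Smpdl3b*, −1.57 for *Sphkap* and 0.62 for *Tjp3*. In the sterol list it was −1.05 for *Fdft1*, −1.15 for *Msmo1* and −0.72 for *Ebp*, and in the chaperonin genes −0.78 for *Hspd1* and −0.84 for *Hspe1*. It was −0.91 for *Fbn1* and −3.65 for *Fosb*, whose male knockout libraries ran from 15.9 to 270.9 normalized counts.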

How the results depend on the processing

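The clock result changed little. The number of clock genes called was 13 to 20 over all settings that used the 12 libraries or left out 1, and 12 to 14 moved alike. The fit of the 6 male libraries alone called 10 clock genes of 31 genes in all, and that of the 6 female libraries alone 19 of 5896. The count over all genes was less stable. An additive model of genotype and sex, which adds the difference between the sexes to the error, called 236 genes, among them 13 clock genes. Leaving out 1 library gave 1804 to 4401 calls in the average contrast, 226 to 667 genes that moved alike and 2384 to 5562 in the interaction contrast, which was lowest without wild-type male replicate 1 and also dropped to 2898 without wild-type male replicate 3 and to 2985 without knockout male replicate 3. Asking for an absolute log2 fold change above 1 in each sex left 42 of the 383 genes that moved alike. Scalings moved the split of higher and lower calls, to 35.5% higher with TMM and 53.1% with the upper quartile. With the upper quartile 152 higher and 222 lower genes moved alike, 328 of them shared with the 383. With the authors' factors 331 genes moved alike, and 238 of these were shared with the 383. Of the genes named from the lists, *Adamts16*, *Bhlhe40*, *Btrc*, *Cdkn1a*, *Clock*, *Cry1*, *Dusp1*, *Ebp*, *Fbn1*, *Fbxw11*, *Fdft1*, *Fosb*, *Fosl2*, *Hspd1*, *Hspe1*, *Klf2*, *Klf4*, *Lonrf3*, *Msmo1*, *Oas2*, *Rbm3* and *Rdh10* lost their calls in the additive model, with adjusted p of 0.063 to 0.272. *Clock*, *Ebp*, *Fdft1*, *Klf2* and *Sidt2* lost theirs with the authors' factors (0.0565 to 0.061), and *Ebp*, *Msmo1* and *Rbm3* with the upper quartile (0.0501 to 0.068). The clock and output genes that moved alike kept their direction under every setting run.

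Same-numbered libraries did not pair: across genes, their departures from the mean of their group correlated at −0.11 to 0.05 for the females and −0.13 to 0.09 for the males. With the replicate block 1891 genes were called, 298 moved alike, 16 clock genes were called and 13 of them moved alike, and 3106 were called in the interaction contrast. *Btrc*, *Clock*, *Ebp*, *Fosb*, *Lonrf3*, *Oas2* and *Rbm3* lost their calls with the block (0.0555 to 0.114). Depth limits *Pou2f3*, *Rorb*, *Adamts4* and *Fosb*, which had few counts in at least some libraries.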

Other observations

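Some genes outside the fixed lists also moved alike with an absolute log2 fold change above 1 in each sex, and were chosen here after their values were seen. *Slc34a2*, a phosphate cotransporter gene, stood at 1.25 in the average contrast, and *Slc23a1*, a vitamin C transporter gene, at −1.08. The water channel gene *Aqp2* had −2.17. The transcription factor genes *Foxs1* and *Prrx2* were at 1.49 and 1.18. The adrenergic receptor gene *Adra2c* stood at 1.32 and the integrin gene *Itga2b* at 1.72. Below that size in at least 1 sex, *Acsl6*, a fatty acid activating enzyme gene, and *Ppp1r3c*, a glycogen-targeting phosphatase subunit gene, moved alike as well, at −1.13 and 0.65, each with an adjusted p under 0.05 in either sex taken alone.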
